A study of Homo sapiens with 33 samples.

Results

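The glycolysis and hypoxia response genes were 36 genes taken by symbol from a count table of 58735 genes. They comprised 17 glycolytic enzymes, 3 transporters of glucose or lactate, 3 regulators of glycolytic flux and 13 target genes of the hypoxia response. All 36 genes passed the filter on low counts over the 33 libraries, as did 22613 of the 43014 genes with any count.

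The libraries were bulk RNA-seq of H9 human embryonic stem cells that were differentiated for 14 days towards gonadal somatic cells. The cells carried a dead Cas9 activator aimed at FOXL2, a forkhead transcription factor of the early ovary, and the activator needs doxycycline (DOX) and trimethoprim (TMP). Day 4, the intermediate mesoderm stage, was sampled once, and days 6, 8, 10, 12 and 14 were sampled in control cultures without the compounds (CTRL) and in cultures that received DOX and TMP from day 4 on (IND). The question was what FOXL2 changes in early gonadal cells. All 11 groups, day 4 and CTRL included, carried the activator and came from 1 clone. Each group held 3 technical replicates, which were wells of 1 differentiation, so a p-value measures the spread between wells. No group received DOX and TMP without the activation of FOXL2, so the compounds and FOXL2 cannot be told apart. In bulk RNA, fewer cells of a type and less RNA per cell cannot be told apart either.

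Glycolysis turns glucose into pyruvate, which lactate dehydrogenase reduces to lactate or which enters the mitochondria through pyruvate dehydrogenase. When oxygen is present, the prolyl hydroxylases of the EGLN family mark the alpha subunits of the hypoxia-inducible factors (HIF) for destruction. When oxygen is low, the HIF alpha subunits accumulate and bind short DNA elements with the core ACGTG or GCGTG beside genes of glucose uptake, glycolysis, vessel growth, mitophagy and pH control. Human pluripotent stem cells are known for a high rate of glycolysis, and many lineages lower it as they differentiate.

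The promoters of 6 members on which the comparisons turned are shown, since the core of the HIF element is a short string that can be read in them. Each is the RefSeq sequence of GRCh38.p14 from 250 bases before to 50 bases after the annotated start, read 5′ to 3′ on the strand of the gene, with each ACGTG or GCGTG of either strand in capitals. The reverse complements are CACGT and CACGC, and overlapping matches such as those within CACGTG were counted separately. EGLN3 lies on the minus strand at chr14:33951025-33951324, BNIP3 on the minus strand at chr10:131981874-131982173, PFKFB4 on the minus strand at chr3:48556754-48557053, ADM on the plus strand at chr11:10304823-10305122, PGK1 on the plus strand at chrX:78103998-78104297 and HK2 on the plus strand at chr2:74833877-74834176.
EGLN3: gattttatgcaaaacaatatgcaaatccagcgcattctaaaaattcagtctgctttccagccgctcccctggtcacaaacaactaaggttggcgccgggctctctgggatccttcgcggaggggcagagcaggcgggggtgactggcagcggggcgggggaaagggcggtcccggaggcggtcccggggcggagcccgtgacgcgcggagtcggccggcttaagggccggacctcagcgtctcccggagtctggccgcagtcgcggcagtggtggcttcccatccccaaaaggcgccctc
BNIP3: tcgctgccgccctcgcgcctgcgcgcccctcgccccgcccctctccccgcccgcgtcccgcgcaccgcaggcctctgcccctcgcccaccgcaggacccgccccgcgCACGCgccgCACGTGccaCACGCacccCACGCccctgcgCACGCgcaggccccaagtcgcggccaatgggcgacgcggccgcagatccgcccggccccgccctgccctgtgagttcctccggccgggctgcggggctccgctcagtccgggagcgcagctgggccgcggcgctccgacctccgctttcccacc
PFKFB4: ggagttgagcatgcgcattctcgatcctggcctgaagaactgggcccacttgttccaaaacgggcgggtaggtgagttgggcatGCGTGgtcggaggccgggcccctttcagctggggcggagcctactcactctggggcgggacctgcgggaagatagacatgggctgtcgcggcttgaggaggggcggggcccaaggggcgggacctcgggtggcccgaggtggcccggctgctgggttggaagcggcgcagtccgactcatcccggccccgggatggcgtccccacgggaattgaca
ADM: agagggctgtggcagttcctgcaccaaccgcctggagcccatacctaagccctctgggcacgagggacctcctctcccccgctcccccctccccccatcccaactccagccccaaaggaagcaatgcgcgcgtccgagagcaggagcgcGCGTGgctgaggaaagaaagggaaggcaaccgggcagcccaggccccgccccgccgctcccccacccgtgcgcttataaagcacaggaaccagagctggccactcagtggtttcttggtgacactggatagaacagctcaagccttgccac
PGK1: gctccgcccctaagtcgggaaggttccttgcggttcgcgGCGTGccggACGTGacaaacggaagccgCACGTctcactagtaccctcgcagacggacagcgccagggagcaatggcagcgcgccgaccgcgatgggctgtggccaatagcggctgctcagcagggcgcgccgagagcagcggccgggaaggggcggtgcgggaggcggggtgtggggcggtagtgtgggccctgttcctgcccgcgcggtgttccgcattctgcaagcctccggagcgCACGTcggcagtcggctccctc
HK2: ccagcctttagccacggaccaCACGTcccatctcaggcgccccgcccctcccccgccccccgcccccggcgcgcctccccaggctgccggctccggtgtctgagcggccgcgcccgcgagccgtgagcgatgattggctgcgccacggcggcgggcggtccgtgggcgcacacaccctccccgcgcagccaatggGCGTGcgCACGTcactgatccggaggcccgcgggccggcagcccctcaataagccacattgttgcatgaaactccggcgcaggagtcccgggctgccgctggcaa

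A promoter was matched for 32 of the 36 members, and 23 of them (71.88%) held at least 1 match to either core, against 48.45% of the 35116 human promoters of the same length. Of members with several promoters, such as HK1 and PFKM with 7 each, only the first listed was searched. The 35116 include several promoters of some genes, so the 2 shares are not of like sets. The core ACGTG alone occurred in 14 of the 32 (43.75%), against 21.41% of all promoters. At least 2 matches to either core were found in 8 of the 32 (25%), near the 23.14% of all promoters. BNIP3 and LDHA had 6 matches each, ALDOC 5, PGK1 4, HK2 and ANKRD37 3 each, and PFKFB4, ADM, ENO2 and ANGPTL4 1 each. No match was found in this window for EGLN3. SLC2A3, BNIP3L, VEGFA and NDRG1 were not matched.

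The libraries held between 23940837 and 51912815 counts, with a median of 41420455. FOXL2 stood at 0.0200 to 0.388 CPM, counts scaled to library size, in the 18 day 4 and CTRL libraries and at 147.6 to 577 CPM in the 15 IND libraries. Here 3 counts in a library equal 0.0565 to 0.130 CPM. The members together held 0.859% to 1.87% of a library. A total of 3 libraries stood apart from their groups. Replicate 2 of day 10 IND had the fewest counts, 0.691% of its counts on mitochondrial genes and 2018 CPM over 8 pluripotent cell markers, against 437.7 CPM in the lowest library of its group. Most of that sum was LIN28A, which held 812 of the group's mean sum of 991 CPM, while POU5F1 averaged 0.503 and SOX2 53.9 CPM. Replicate 3 of day 4 had 1.14% mitochondrial counts, against 1.99% to 4.28% in the other 31 libraries. Replicate 1 of day 12 IND gave a chi-square statistic per gene of 122.7 and 95.1 against its group's other wells, which gave 17.7 against each other. These statistics were 71.4 and 128.2 for replicate 3 of day 4 and 227.3 and 245.8 for replicate 2 of day 10 IND. All 3 were kept, and counts that moved without them are given with the results.

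Per length, the most abundant members were glycolytic enzymes. Mean FPKM over the 33 libraries, as the authors scaled them, was 617 for GAPDH, 430 for ENO1, 306 for TPI1, 208 for PGAM1, 167 for PKM and 125 for LDHA. GAPDH ranked 36th, ENO1 59th and TPI1 84th among the 58735 genes. Of the transporters, SLC2A1 averaged 66.3 and SLC2A3 54.9 FPKM. The least abundant members were the hypoxia targets CA9 (0.407 FPKM), ANKRD37 (1.55), ANGPTL4 (1.85) and EGLN3 (1.96), followed by ALDOA (2.54). The count of ALDOA was 13016 over all libraries, and its exons share 1657 bases with the row AC093512.2 on the same strand, so its level is uncertain. CA9 had 883 counts and shares 643 bases with ARHGEF39, and ANKRD37 shares 909 bases with UFSP2, which matters because the libraries did not keep strand.

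**Figure D1:**
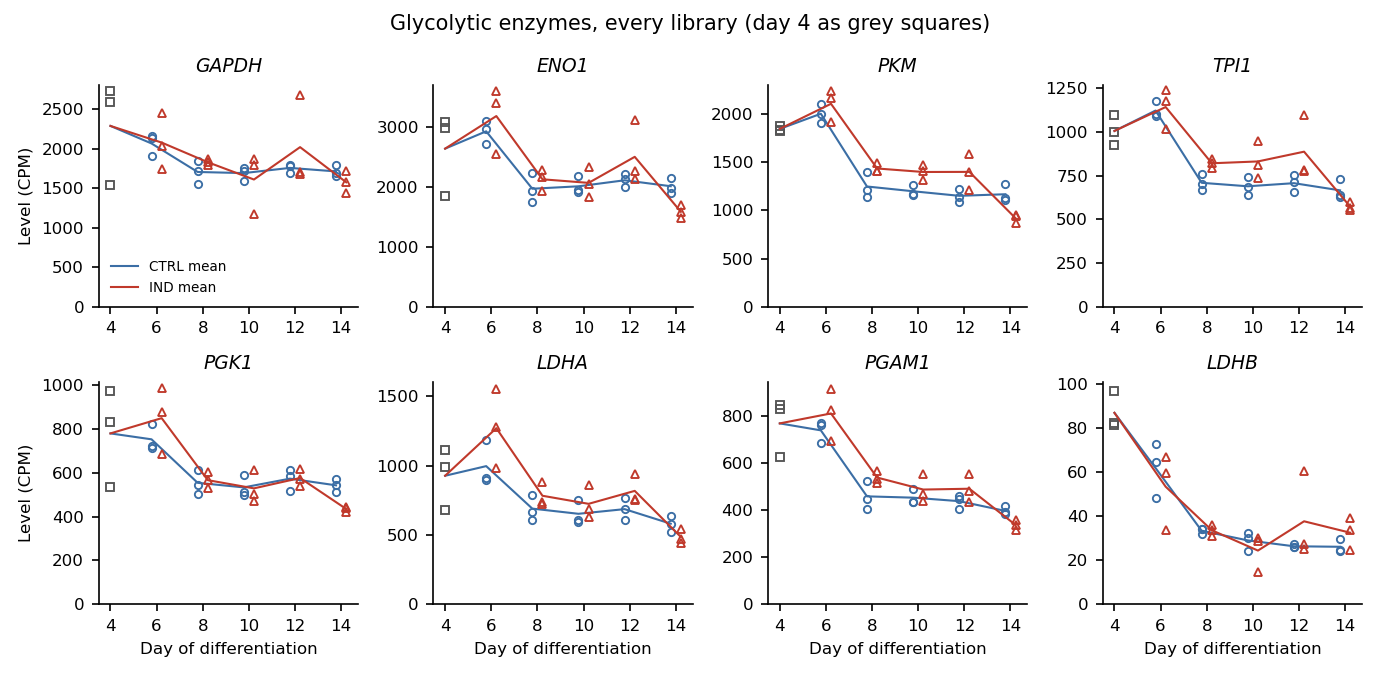
Levels of 8 glycolytic enzymes in every library, in CPM on linear axes, by day of differentiation. Grey squares are day 4, blue circles CTRL, red triangles IND and lines the group means; on day 14 the 3 IND values of ENO1, PKM and PGK1 lay below all 3 CTRL values, while those of GAPDH overlapped.

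The plot of enzyme levels shows the most abundant members, and the less abundant LDHB, over the whole course. GAPDH, the enzyme of the step that makes NADH, had 2589, 2735 and 1542 CPM in the 3 day 4 libraries. Its CTRL values were 2158, 2136 and 1906 CPM on day 6, 1555, 1839.9 and 1722 on day 8, 1719.7, 1593 and 1762 on day 10, 1695, 1778 and 1799 on day 12 and 1689.5, 1798 and 1650.1 on day 14. Its IND values were 1744, 2034 and 2457 CPM on day 6, 1796, 1828 and 1864 on day 8, 1799.7, 1168 and 1864 on day 10, 2677, 1701 and 1682 on day 12 and 1575, 1717 and 1435 on day 14. CTRL and IND overlapped on each day, and the low value on day 10 and the high one on day 12 each came from a single well. The log2 fold change of GAPDH between IND and CTRL was 0.03, 0.11, -0.07, 0.20 and -0.12 on the 5 days, with adjusted p from 0.377 to 0.957.

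On days 6, 8 and 12, 2, 5 and 2 of the 13 hypoxia targets rose in IND against CTRL. On day 14, 5 of the 17 glycolytic enzymes fell and 1 hypoxia target, NDRG1, rose. Each member was listed under 1 role, so PDK1 and LDHA, which HIF also induces, were not among the 13. On day 6, 2 of the 36 members were called higher and 0 lower in IND at an adjusted p under 0.05, where 1.29% of all genes tested were called higher and 2.37% lower. Both were hypoxia targets, EGLN3 and NDRG1. On day 8, 6 members were called higher and 1 lower (7.49% and 6.67% of all genes). The 6 were the hypoxia targets EGLN3, ANGPTL4, NDRG1, BNIP3 and EGLN1 and the flux regulator PFKFB4, and the lower member was PDK1. On day 10, 0 members were called by edgeR, where 0.856% of all genes were called higher and 1.18% lower, although 11 members had an unadjusted p under 0.05. DESeq2 called 5 members on that day. On day 12, 2 members were called higher, the hypoxia targets ADM and NDRG1, and 0 lower (2.38% and 3.04% of all genes). On day 14, 1 member was called higher and 6 lower (3.21% and 5.22% of all genes), and 5 of the 6 were glycolytic enzymes.

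The sign of the difference between IND and CTRL followed the same days. Of the 36 members, 29, 32, 29 and 29 had a log2 fold change above 0 on days 6, 8, 10 and 12, and 13 on day 14. The median log2 fold change of the members was 0.15, 0.22, 0.21, 0.22 and -0.20 on the 5 days, against -0.01 to 0.02 for all genes tested. Groups did not overlap, with IND above CTRL, for 4, 13, 13, 11 and 2 members, where this held for 8.08%, 16.3%, 14.7%, 14.6% and 12.9% of all genes tested. With IND below CTRL, they did not overlap for 0, 2, 1, 2 and 11 members, where this held for 11.0%, 16.9%, 16.2%, 15.7% and 13.9% of all genes.

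**Figure D2:**
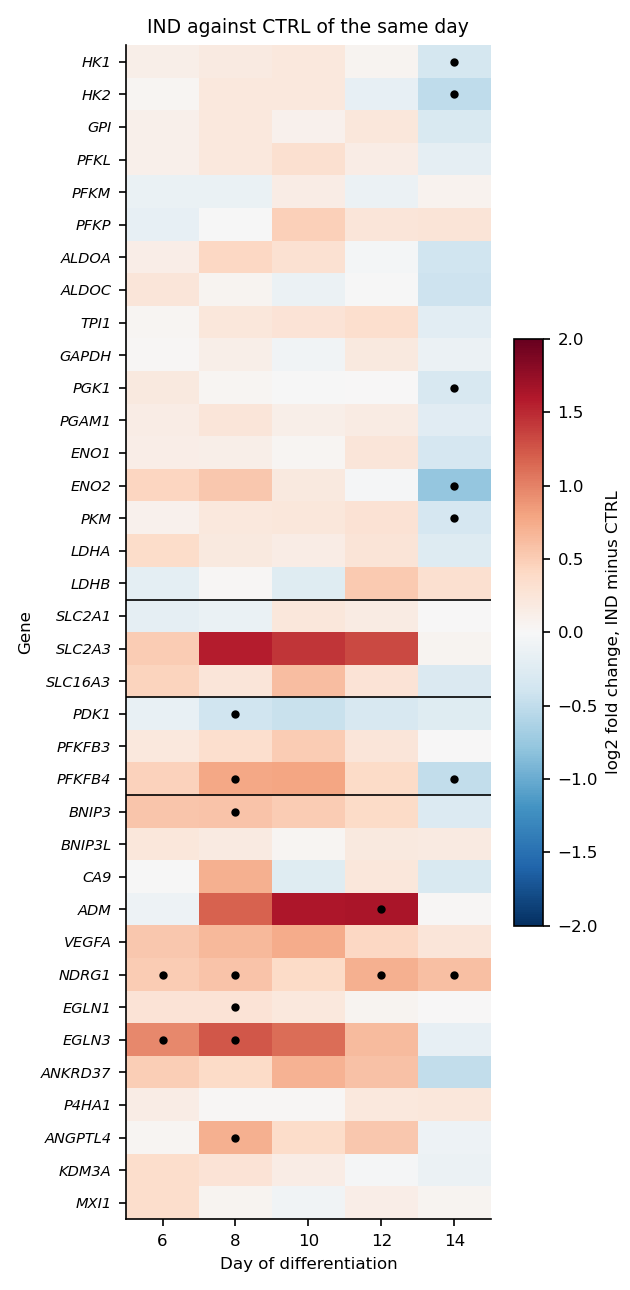
Log2 fold change of IND over CTRL for the 36 members on days 6 to 14, ordered by role, with a dot where the adjusted p was under 0.05. The hypoxia targets were mostly above 0 on days 6 to 12 (11, 13, 11 and 12 of 13), and the glycolytic enzymes mostly below 0 on day 14 (3 of 17 above 0).

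The counts of calls changed when single wells were left out. Without replicate 1 of day 6 IND, 8 members were called on day 6, and without any 1 of the other day 6 libraries 1 or 2. On day 8, 12 members were called without replicate 2 of CTRL or replicate 3 of IND, and 3 without any 1 of the other 4 libraries. On day 10, 12 members were called without replicate 2 of IND, which stood apart, of which 11 were higher. On day 12, 5 were called without replicate 1 of IND, which stood apart, 0 without replicate 1 or 2 of CTRL or replicate 2 of IND, and 1 without replicate 3 of CTRL. On day 14, 10 were called without replicate 3 of CTRL, 3 without replicate 3 of IND, and 4 without replicate 1 of either group or replicate 2 of IND.

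Of the prolyl hydroxylases, EGLN3, itself a HIF target, had the largest early difference among the called members. In the day 4 libraries EGLN3 stood at 12.0, 8.35 and 9.34 CPM. CTRL values of EGLN3 were 11.4, 12.5 and 9.40 CPM on day 6, 6.01, 7.94 and 7.33 on day 8, 10.2, 7.85 and 10.2 on day 10, 10.1, 14.9 and 14.7 on day 12 and 14.5, 12.4 and 20.2 on day 14. IND values of EGLN3 were 17.7, 22.9 and 23.4 CPM on day 6, 17.8, 16.4 and 15.9 on day 8, 14.9, 27.9 and 18.0 on day 10, 19.9, 23.2 and 18.7 on day 12 and 12.8, 15.2 and 13.7 on day 14. All 3 IND values lay above all 3 CTRL values from day 6 to day 12, and the groups overlapped on day 14. EGLN3 rose 1.95-fold in IND on day 6, a log2 fold change of 0.96 (SE 0.15, adjusted p = 0.00132), and 2.38-fold on day 8, a log2 fold change of 1.25 (SE 0.14, adjusted p = 0.000156). These calls held without any 1 of the libraries. The log2 fold change was 1.11 (adjusted p = 0.112) on day 10, 0.64 (adjusted p = 0.0856) on day 12 and -0.17 (adjusted p = 0.639) on day 14.

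EGLN1, the main HIF prolyl hydroxylase, had a smaller difference on day 8 only among the called comparisons. Its values that day were 59.9, 66.0 and 65.1 CPM in CTRL and 77.5, 75.9 and 74.6 CPM in IND, without overlap. The log2 fold change was 0.27 (SE 0.07, adjusted p = 0.0278). The share of the summed FPKM of EGLN1 and EGLN3 that fell on EGLN3 was 11.8% ± 1.75 (SD, n = 3) in CTRL and 17.7% ± 0.606 (SD, n = 3) in IND on day 6. On day 8 it was 9.88% ± 0.809 (SD, n = 3) and 17.8% ± 0.541 (SD, n = 3). Over these days the 3 IND shares lay above the 3 CTRL shares, and on day 14 the means were 18.5% in CTRL and 17.1% in IND.

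NDRG1, a stress-induced gene of differentiation, was called on more days than any other member. CTRL values of NDRG1 were 37.0, 44.0 and 46.2 CPM on day 6, 48.9, 60.5 and 48.6 on day 8, 58.5, 50.1 and 72.0 on day 10, 60.3, 71.4 and 67.0 on day 12 and 50.9, 52.4 and 54.0 on day 14. IND values of NDRG1 were 48.5, 69.7 and 60.4 CPM on day 6, 73.7, 75.5 and 84.5 on day 8, 89.0, 59.7 and 87.1 on day 10, 105, 123 and 98.1 on day 12 and 81.3, 76.5 and 79.9 on day 14. The groups did not overlap on days 6, 8, 12 and 14, and overlapped on day 10, when replicate 2 of IND was low. NDRG1 rose by a log2 fold change of 0.51 (SE 0.13, adjusted p = 0.0399) on day 6, 0.58 (SE 0.10, adjusted p = 0.00231) on day 8, 0.72 (SE 0.13, adjusted p = 0.0152) on day 12 and 0.60 (SE 0.08, adjusted p = 0.000385) on day 14, and stood at 0.39 (adjusted p = 0.425) on day 10. The calls of days 8 and 14 held without any 1 of the libraries. That of day 6 was lost without any 1 of 5 of the 6 libraries, with adjusted p of 0.0541 to 0.296. That of day 12 was lost without any 1 of 4 of the 6, with adjusted p of 0.0522 to 0.0807.

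**Figure D3:**
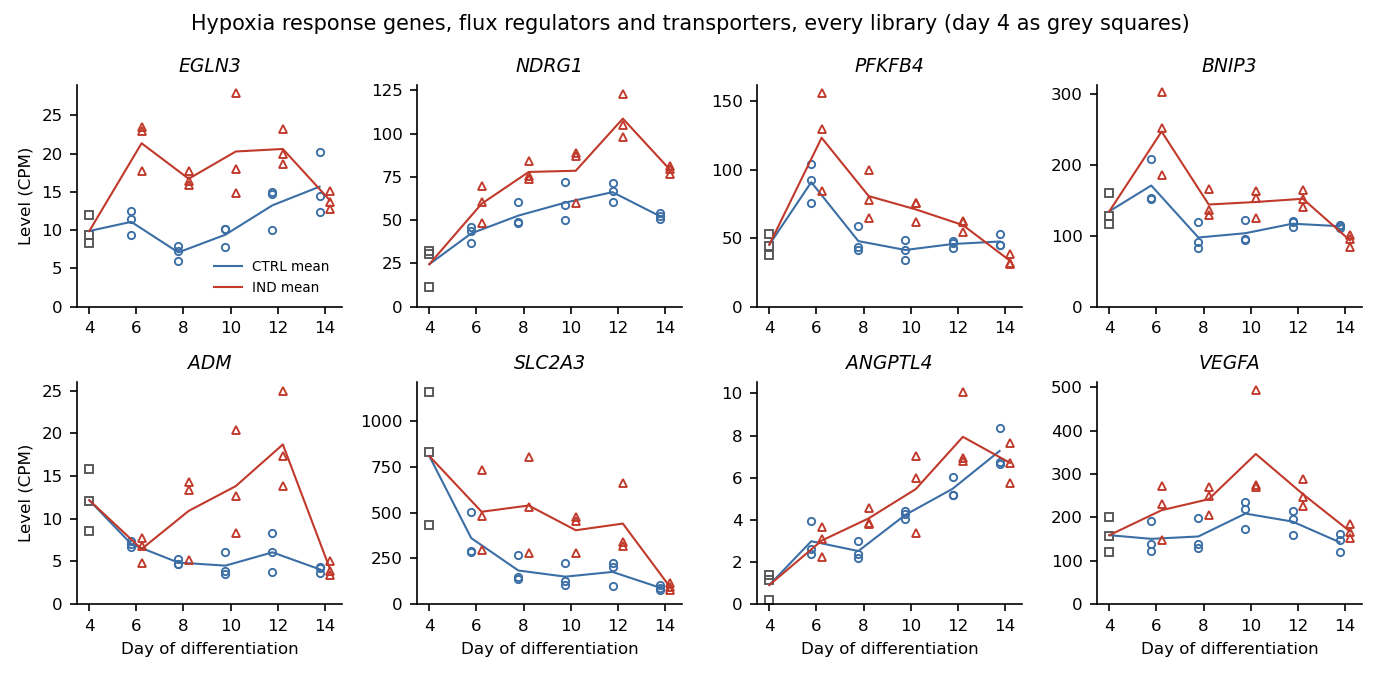
Levels of 8 hypoxia targets, transporters and flux regulators in every library, in CPM on linear axes, by day of differentiation, with day 4 as grey squares, CTRL as blue circles, IND as red triangles and group means as lines. EGLN3, SLC2A3 and VEGFA were apart between CTRL and IND on days 8 to 12 and overlapped on day 14. NDRG1 overlapped on day 10 and was apart on day 14.

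Genes of mitophagy and of secreted factors followed, as the plot of hypoxia targets, transporters and flux regulators shows. BNIP3, a mitochondrial receptor for mitophagy, stood at 160.0, 127 and 116 CPM on day 4. CTRL values of BNIP3 were 153, 208 and 151 CPM on day 6, 82.1, 119 and 91.4 on day 8, 95.8, 93.5 and 121 on day 10, 112, 120.2 and 119 on day 12 and 116, 114 and 111 on day 14. IND values of BNIP3 were 186, 252 and 302 CPM on day 6, 166, 137 and 129 on day 8, 125, 154 and 164 on day 10, 164, 152 and 139.9 on day 12 and 84.8, 95.0 and 101 on day 14. IND lay above CTRL without overlap on days 8, 10 and 12 and below it on day 14. BNIP3 rose on day 8 with a log2 fold change of 0.58 (SE 0.15, adjusted p = 0.0414), and stood at 0.55 (adjusted p = 0.223) on day 6, 0.51 (adjusted p = 0.189) on day 10, 0.38 (adjusted p = 0.0845) on day 12 and -0.27 (adjusted p = 0.065) on day 14. ANGPTL4, a secreted inhibitor of lipoprotein lipase, had 2.37, 2.98 and 2.19 CPM in CTRL and 3.85, 3.80 and 4.56 CPM in IND on day 8. All 3 IND values were above CTRL, with a log2 fold change of 0.70 (SE 0.20, adjusted p = 0.0389). The calls of BNIP3, ANGPTL4, EGLN1 and PFKFB4 on day 8 were each lost in 4 or 5 of the 6 fits that left out 1 library.

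ADM, the vasodilator peptide adrenomedullin, stood at 15.8, 8.56 and 12.1 CPM on day 4. CTRL values of ADM were 7.38, 6.997 and 6.73 CPM on day 6, 4.66, 5.27 and 4.65 on day 8, 3.82, 3.56 and 6.13 on day 10, 3.76, 6.10 and 8.31 on day 12 and 4.17, 4.35 and 3.70 on day 14. IND values of ADM were 4.80, 6.83 and 7.71 CPM on day 6, 14.3, 13.3 and 5.13 on day 8, 8.37, 20.4 and 12.7 on day 10, 17.3, 24.9 and 13.8 on day 12 and 3.41, 5.04 and 3.91 on day 14. IND was above CTRL without overlap on days 10 and 12, and in 2 of 3 wells by a wide margin on day 8. ADM rose 3.10-fold on day 12, with a log2 fold change of 1.63 (SE 0.31, adjusted p = 0.0203), a call lost in 4 of the 6 fits without 1 library. On day 8 the log2 fold change was 1.18 (adjusted p = 0.0775), on day 10 1.62 (adjusted p = 0.11) and on day 14 0.02 (adjusted p = 0.969). Without replicate 3 of day 8 IND, the low well, the day 8 value was 1.52, with an adjusted p of 2.9e-05. Without replicate 2 of day 10 IND the day 10 value was 1.22, with an adjusted p of 0.0118.

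VEGFA, the main vessel growth factor under HIF, was not called on any day with all libraries. Its CTRL values were 138, 191 and 122 CPM on day 6, 129, 199 and 139 on day 8, 219, 173 and 234 on day 10, 159.8, 214 and 197 on day 12 and 161, 119 and 148 on day 14, after 156, 201 and 119 on day 4. Its IND values were 148, 230.0 and 272 CPM on day 6, 271, 250.2 and 205 on day 8, 271, 494 and 274 on day 10, 225, 289 and 247 on day 12 and 154, 184 and 165 on day 14. On days 8, 10 and 12 all IND values were above all CTRL values, and on days 6 and 14 the groups overlapped. The log2 fold change of VEGFA was 0.54 (adjusted p = 0.489), 0.65 (adjusted p = 0.0667), 0.74 (adjusted p = 0.27), 0.42 (adjusted p = 0.157) and 0.24 (adjusted p = 0.256) on the 5 days. Without replicate 2 of day 10 IND, the well with the highest value, it was 0.38 on day 10 with an adjusted p of 0.0492. It was also called on day 6 without replicate 1 of IND, at 0.76 (adjusted p = 0.0147), and on day 8 without replicate 2 of CTRL, at 0.86 (adjusted p = 0.00113).

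CA9, the membrane carbonic anhydrase often used as a marker of hypoxia, was the least abundant member, with 9 to 48 counts in a library. Its level was 1.67, 0.901 and 0.647 CPM on day 4, and 0.377, 0.553 and 0.481 CPM in CTRL and 0.668, 0.633 and 0.977 CPM in IND on day 8, the day on which its groups did not overlap. On day 6 the values were 0.272, 1.04 and 0.673 in CTRL and 0.455, 0.636 and 0.861 in IND, on day 10 0.502, 0.571 and 0.878 and 0.247, 0.821 and 0.592, on day 12 0.508, 0.837 and 0.494 and 0.670, 0.757 and 0.708, and on day 14 0.535, 1.19 and 0.569 and 0.366, 0.584 and 0.852 CPM. CTRL and IND overlapped on these 4 days. Its log2 fold change on day 8 was 0.71 (adjusted p = 0.232).

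The glucose transporters differed from each other. SLC2A3 encodes GLUT3, a transporter of high affinity, and stood at 833, 1159 and 432 CPM on day 4. CTRL values of SLC2A3 were 286, 503 and 292 CPM on day 6, 136, 268 and 146 on day 8, 126, 102 and 222 on day 10, 99.6, 222 and 205 on day 12 and 106, 75.3 and 90.1 on day 14. IND values of SLC2A3 were 295, 483 and 734 CPM on day 6, 806, 529 and 280.2 on day 8, 277, 456 and 477 on day 10, 317, 664 and 338 on day 12 and 75.4, 115 and 91.0 on day 14. IND lay above CTRL without overlap on days 8, 10 and 12, and the wells of each group spread widely. None of its differences was called, with log2 fold changes of 0.50 (adjusted p = 0.734), 1.57 (adjusted p = 0.131), 1.43 (adjusted p = 0.11), 1.33 (adjusted p = 0.0705) and 0.06 (adjusted p = 0.893) on the 5 days. The day 10 value was 1.33 without replicate 2 of IND, with an adjusted p of 0.21.

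SLC2A1 encodes GLUT1, the basal glucose transporter, and stood at 273, 215 and 132 CPM on day 4. CTRL values of SLC2A1 were 388, 429 and 326 CPM on day 6, 257, 359 and 301 on day 8, 308, 272 and 343 on day 10, 321, 374 and 343 on day 12 and 298, 221 and 322 on day 14. IND values of SLC2A1 were 238, 326 and 432 CPM on day 6, 299.6, 298 and 228 on day 8, 327, 369 and 379 on day 10, 374, 427 and 365 on day 12 and 226, 289.7 and 324 on day 14. The groups overlapped on each of the 5 days, and the log2 fold changes were -0.18, -0.14, 0.22, 0.17 and 0.00.

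**Figure D4:**
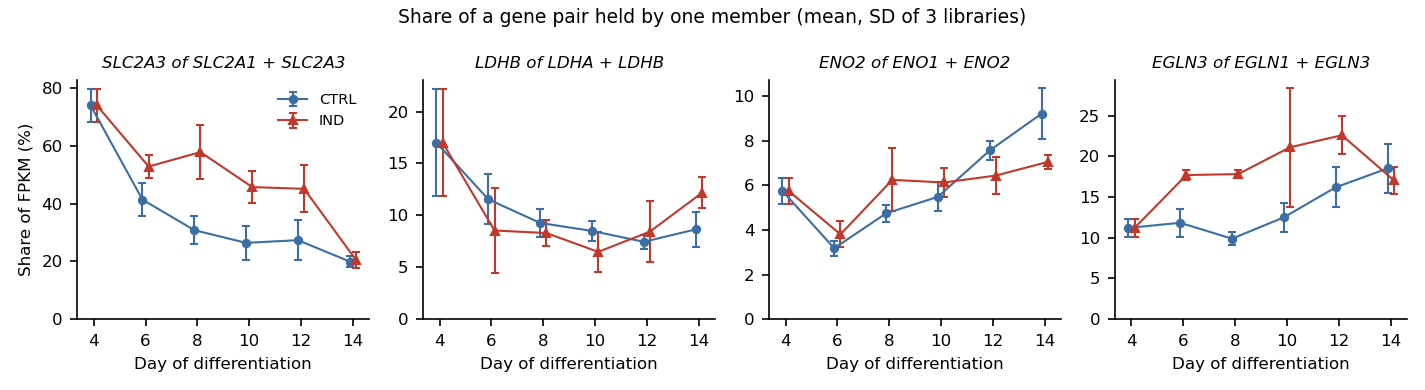
Share of 4 gene families that fell on 1 member, in percent of the summed FPKM of the pair, by day of differentiation, as mean and SD of 3 libraries in day 4, CTRL and IND. SLC2A3 held 57.8% of the GLUT1 and GLUT3 pair in IND and 30.8% in CTRL on day 8, and about the same share of both on day 14 (20.5% and 19.9%).

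A share within a library does not depend on how the library was scaled, and the plot of family shares gives it for 4 pairs. SLC2A3 held 74.0% ± 5.67 (SD, n = 3) of the summed FPKM of SLC2A1 and SLC2A3 on day 4. In CTRL the 3 shares ranged from 36.2% to 47.3% on day 6, 27.1% to 36.4% on day 8, 22.3% to 33.2% on day 10, 19.2% to 31.4% on day 12 and 17.7% to 21.4% on day 14. In IND they ranged from 48.7% to 56.6% on day 6, 48.5% to 67.4% on day 8, 39.4% to 49.1% on day 10, 39.4% to 54.4% on day 12 and 17.7% to 23.3% on day 14. On days 6 to 12 the IND shares lay above the CTRL shares without overlap, and on day 14 they overlapped. Shares were described without a test, since 3 wells against 3 cannot reach a p under 0.05 in an exact permutation test.

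Of the regulators of flux, PFKFB4, which sets the level of the activator of phosphofructokinase, was high in IND early and low late. PFKFB4 stood at 53.2, 44.6 and 38.1 CPM on day 4. CTRL values of PFKFB4 were 92.7, 104 and 76.0 CPM on day 6, 41.4, 58.7 and 43.6 on day 8, 41.7, 34.0 and 48.5 on day 10, 42.7, 46.8 and 47.7 on day 12 and 44.7, 53.0 and 45.1 on day 14. IND values of PFKFB4 were 84.5, 129 and 156 CPM on day 6, 99.8, 77.8 and 64.6 on day 8, 61.7, 76.0 and 75.4 on day 10, 62.7, 61.5 and 54.6 on day 12 and 30.9, 38.2 and 31.7 on day 14. IND was above CTRL without overlap on days 8, 10 and 12 and below it without overlap on day 14. PFKFB4 rose on day 8 with a log2 fold change of 0.77 (SE 0.20, adjusted p = 0.0463) and fell on day 14 with -0.50 (SE 0.11, adjusted p = 0.0108), and stood at 0.78 (adjusted p = 0.0835) on day 10 and 0.38 (adjusted p = 0.0998) on day 12. The day 14 call was lost without replicate 1 or replicate 3 of IND, with adjusted p of 0.0625 and 0.0709.

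PDK1, the kinase that blocks pyruvate dehydrogenase and so keeps pyruvate out of the mitochondria, is a classical HIF target and went the other way. It stood at 149.6, 134 and 128 CPM on day 4. CTRL values of PDK1 were 133, 166 and 139 CPM on day 6, 96.1, 106 and 107 on day 8, 92.3, 97.4 and 91.1 on day 10, 76.3, 85.6 and 79.9 on day 12 and 71.4, 64.3 and 87.9 on day 14. IND values of PDK1 were 123, 131 and 137 CPM on day 6, 83.4, 74.1 and 76.3 on day 8, 75.9, 51.5 and 79.0 on day 10, 52.7, 69.4 and 70.7 on day 12 and 56.7, 60.1 and 72.1 on day 14. IND was below CTRL without overlap on days 8, 10 and 12. PDK1 fell on day 8 with a log2 fold change of -0.39 (SE 0.08, adjusted p = 0.00606), a call that held without any 1 of the libraries, and stood at -0.15 (adjusted p = 0.602), -0.44 (adjusted p = 0.305), -0.33 (adjusted p = 0.24) and -0.24 (adjusted p = 0.314) on days 6, 10, 12 and 14.

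On day 14, 5 of the 17 glycolytic enzymes were called lower in IND and 0 higher, where 5.22% and 3.21% of all genes tested were. Of the 17, 8 were below CTRL without overlap, where 13.9% of all genes were. Outside the enzymes PFKFB4 was called lower and NDRG1 higher on that day. The median log2 fold change of the 17 was -0.30, after 0.10, 0.19, 0.15 and 0.17 on days 6 to 12, when 0 of them were called in either direction. HK2, the inducible hexokinase of the first step, had 79.1, 75.4 and 84.6 CPM in CTRL and 49.96, 58.7 and 58.4 CPM in IND on day 14. The groups did not overlap, and HK2 fell with a log2 fold change of -0.51 (SE 0.09, adjusted p = 0.0031). Earlier its CTRL and IND values overlapped, with 126, 135 and 109 and 96.7, 123 and 154 CPM on day 6, 73.7, 99.2 and 80.0 and 117, 105 and 69.3 on day 8, 96.7, 76.3 and 87.6 and 91.8, 107 and 101 on day 10, and 88.6, 101 and 95.3 and 62.1, 100.1 and 90.8 on day 12. HK1, the hexokinase of most tissues, had 142, 159 and 124 CPM in CTRL and 116, 111 and 103 CPM in IND on day 14. HK1 fell with a log2 fold change of -0.36 (SE 0.10, adjusted p = 0.0345), again without overlap.

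ENO2, the enolase of neurons, had the largest difference of the enzymes on day 14. It stood at 144, 170.5 and 83.0 CPM on day 4. CTRL values of ENO2 were 82.8, 89.1 and 63.1 CPM on day 6, 72.3, 96.5 and 70.4 on day 8, 91.1, 79.4 and 115 on day 10, 140.3, 142 and 138 on day 12 and 166, 200.1 and 134 on day 14. IND values of ENO2 were 68.2, 111 and 133 CPM on day 6, 143, 117 and 85.0 on day 8, 96.9, 109 and 121 on day 10, 151, 144 and 118 on day 12 and 94.5, 101 and 95.9 on day 14. The groups overlapped until day 12 and were apart on day 14, when ENO2 fell with a log2 fold change of -0.77 (SE 0.12, adjusted p = 0.00231). The calls of ENO2 and HK2 held without any 1 of the libraries. Of 12 neuron markers, 10 were called lower in IND on day 14, when their sum was 375 to 441 CPM in IND and 552 to 901 CPM in CTRL, with 0 of the defining markers at 0 in either group. Neuron markers were lower in IND before ENO2 was, with 1, 6, 5 and 7 of them called lower on days 6, 8, 10 and 12. Their mean sum was 85.3 CPM in IND and 125 in CTRL on day 6, 109 and 185 on day 8, 162 and 333 on day 10, and 231 and 481 on day 12, without overlap on any of these days. Their part in the difference of ENO2 was not tested.

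PGK1 and PKM were the other enzymes called on day 14. PGK1, the first step that makes ATP, had 513, 572 and 544 CPM in CTRL and 421, 441 and 443 CPM in IND, and fell with a log2 fold change of -0.32 (SE 0.09, adjusted p = 0.0371). PKM, pyruvate kinase, had 1102, 1274 and 1123 CPM in CTRL and 939, 951 and 864 CPM in IND, and fell with a log2 fold change of -0.34 (SE 0.10, adjusted p = 0.0454). Neither gene overlapped between the groups, and the calls of PGK1, PKM and HK1 were each lost in 5 or 6 of the 6 fits that left out 1 library. ENO1, the common enolase, had 1983, 2155 and 1889.8 CPM in CTRL and 1581, 1690.3 and 1476 CPM in IND, without overlap, and a log2 fold change of -0.34 (adjusted p = 0.0543). LDHA, the subunit of lactate dehydrogenase that HIF induces, had 579.7, 522 and 639 and 443, 467 and 543 CPM, which overlapped, with a log2 fold change of -0.26 (adjusted p = 0.178). LDHB, the subunit of oxidative tissues, had 24.1, 29.7 and 24.5 and 24.8, 33.7 and 39.0 CPM, which also overlapped, with a log2 fold change of 0.32 (adjusted p = 0.259).

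On the earlier days PGK1, LDHA, ENO1, LDHB and HK1 overlapped between CTRL and IND, while PKM did not on days 8 and 10. PGK1 had 724, 822 and 715 CPM in CTRL and 687, 876 and 988 in IND on day 6, 504, 614 and 546 and 602, 531 and 567 on day 8, 497, 512 and 593 and 503, 472 and 612 on day 10, and 519, 614 and 587 and 616, 539.8 and 574 on day 12. LDHA had 894, 1185 and 909 CPM in CTRL and 983, 1278 and 1549 in IND on day 6, 609, 790.2 and 668 and 882, 725 and 739 on day 8, 608, 596 and 752 and 683, 632 and 856 on day 10, and 603, 765 and 688 and 941, 761 and 750.2 on day 12. ENO1 had 2958, 3098 and 2717 CPM in CTRL and 2548, 3390.0 and 3599 in IND on day 6, 1745, 2233 and 1924 and 2286, 1928 and 2159.6 on day 8, 1907, 1938 and 2178 and 2042, 1830.2 and 2323 on day 10, and 1990.4, 2124 and 2211 and 3116, 2259 and 2123 on day 12. In each of these 3 enzymes replicate 3 of day 6 IND was the highest of its group, and the groups overlapped on each of these days. LDHB had 48.4, 64.6 and 72.9 CPM in CTRL and 67.0, 59.7 and 33.6 in IND on day 6, 34.2, 31.9 and 34.0 and 31.2, 33.8 and 35.9 on day 8, 24.3, 30.3 and 32.4 and 29.9, 14.5 and 28.7 on day 10, and 25.8, 27.2 and 26.0 and 60.6, 25.1 and 27.4 on day 12. HK1 had 122, 125 and 122 CPM in CTRL and 112, 148 and 135 in IND on day 6, 98.8, 110.4 and 98.7 and 120.1, 119 and 108 on day 8, 112, 111 and 120.0 and 118, 159.5 and 117 on day 10, and 126, 134 and 138 and 145, 149 and 119 on day 12. Both overlapped on each of these days. PKM had 2102, 1996 and 1905 CPM in CTRL and 1912, 2165 and 2236 in IND on day 6, 1136, 1395 and 1209 and 1486, 1406 and 1409 on day 8, 1158, 1171 and 1263 and 1311, 1469.9 and 1410.4 on day 10, and 1091, 1143 and 1217 and 1585, 1397 and 1212 on day 12. IND lay above CTRL on days 8 and 10, at log2 fold changes of 0.21 (adjusted p = 0.121) and 0.23 (adjusted p = 0.384).

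In all, 13 members were called in at least 1 comparison of IND with CTRL and 23 in none. The latter included the enzymes GPI, PFKL, PFKM, PFKP, ALDOA, ALDOC, TPI1 and PGAM1, the lactate exporter SLC16A3, PFKFB3, and the targets BNIP3L, ANKRD37, P4HA1, KDM3A and MXI1. The nearest to a call were ALDOC, the brain aldolase, with a lowest adjusted p of 0.053 over the 5 days, ENO1 with 0.0543, TPI1, triose phosphate isomerase, with 0.0638, VEGFA with 0.0667, KDM3A with 0.0674 and PFKFB3 with 0.068. PFKFB3, the inducible counterpart of PFKFB4, had log2 fold changes between 0.014 and 0.50, all above 0. P4HA1, a collagen prolyl hydroxylase, stayed between 0.025 and 0.22, and BNIP3L between 0.031 and 0.23. GPI, the isomerase of the second step, ranged from -0.30 to 0.22, PFKL from -0.18 to 0.31 and PFKM from -0.13 to 0.15. A p that missed the threshold does not show that the groups were equal.

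Whether the difference between IND and CTRL changed with the day was tested directly, as an interaction over the 30 libraries after day 4. Of the 36 members, 4 had an adjusted p under 0.05, where 2.38% of all genes did: PFKFB4 (0.018), EGLN3 (0.0223), ADM (0.0368) and ENO2 (0.0372), with PKM next at 0.0536. From day 6 to day 14 the log2 fold change dropped by 1.17 for ENO2, by 0.93 for PFKFB4 and by 1.11 for EGLN3. For ADM it was 1.76 higher on day 12 than on day 6 and 0.15 higher on day 14. The number of members with an interaction was 5 without replicate 2 of day 10 IND, 0 without replicate 1 of every group, and 1 without replicate 2 or replicate 3.

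The control course asked how the members changed with differentiation alone. Some enzymes of glycolysis and SLC2A3 were called lower on day 14 than at the mesoderm stage on day 4, and some hypoxia targets higher. In either direction 17 of the 36 members were called on day 14, near the 47.6% of all genes tested. The enzymes PFKL, ALDOC and ENO2 had higher means on day 14 than on day 4. Members called higher and lower against day 4 in CTRL were 5 and 4 on day 6 (11.0% and 10.6% of all genes tested), 4 and 10 on day 8 (18.1% and 18.9%), 5 and 10 on day 10 (23.1% and 22.0%), 6 and 8 on day 12 (24.4% and 23.8%), and 6 and 11 on day 14 (24.6% and 22.9%). On day 14, 8 of 17 enzymes were called lower and 0 higher, with a median log2 fold change of -0.43, and 6 of 13 hypoxia targets were called higher and 1 lower, with a median of 0.60. Scaling by total counts alone moved the median of all genes by 0.13 to 0.23 in the comparisons with day 4. On that scale the members called higher and lower were 5 and 0 on day 6, 6 and 8 on day 8, 7 and 8 on day 10, and 7 and 8 on day 14. Without replicate 3 of day 4, 14, 24, 24, 21 and 22 members were called on the 5 days. On day 6, 3 were called without replicate 1 of CTRL, 4 without replicate 2, and 5 without replicate 3 of CTRL or replicate 1 of day 4, and on day 8, 9 were called without replicate 1 of CTRL.

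**Figure D5:**
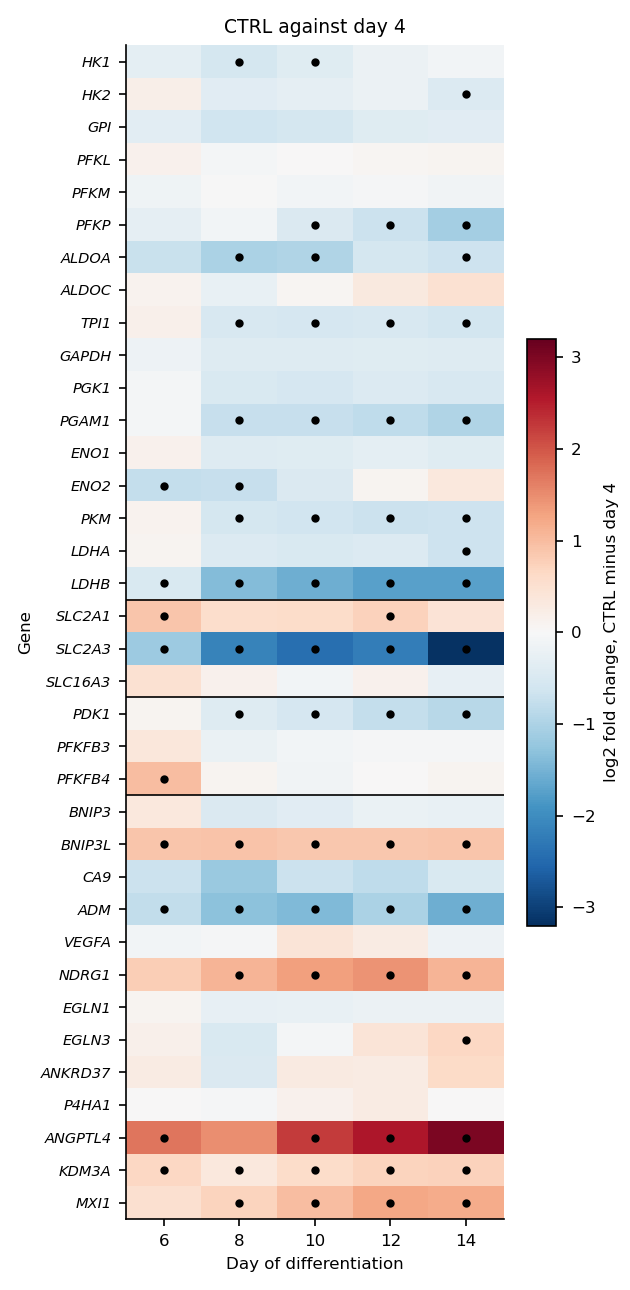
Log2 fold change of CTRL on days 6 to 14 over day 4 for the 36 members, ordered by role, with a dot where the adjusted p was under 0.05. SLC2A3, LDHB and ADM were lower on each of the 5 days. On day 14 ANGPTL4 and NDRG1 stood at 3.01 and 1.10, or 2.53 and 0.76 without replicate 3 of day 4.

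Members that fell from day 4 to day 14 in CTRL were led by SLC2A3, which went from 808 ± 364 to 90.4 ± 15.2 CPM (mean and SD, n = 3), a log2 fold change of -3.16 (SE 0.32, adjusted p = 5.41e-05). LDHB, the lactate dehydrogenase subunit of oxidative tissues, went from 82.5, 81.7 and 97.1 CPM to 24.1, 29.7 and 24.5 CPM, a log2 fold change of -1.73 (SE 0.13, adjusted p = 8.86e-06). ADM fell with a log2 fold change of -1.57 (SE 0.25, adjusted p = 0.000713), from the values given above. PFKP, the platelet form of phosphofructokinase, had 215, 186 and 221 CPM on day 4 and 86.1, 90.6 and 117 on day 14, and fell with a log2 fold change of -1.08 (SE 0.14, adjusted p = 0.000227). PGAM1, phosphoglycerate mutase, had 848, 831 and 626 CPM on day 4 and 389.8, 381 and 417 on day 14, and fell with a log2 fold change of -0.95 (SE 0.14, adjusted p = 0.000539). PDK1 fell with a log2 fold change of -0.88 (SE 0.14, adjusted p = 0.000648). In all 6 the day 14 values lay below the day 4 values. LDHA (-0.67), ALDOA (-0.67), PKM (-0.66), TPI1 (-0.59) and HK2 (-0.43) were also called lower, whereas GAPDH (-0.41 (adjusted p = 0.131)) and ENO1 (-0.39 (adjusted p = 0.138)) were not called.

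Members called higher on day 14 than on day 4 in CTRL were all hypoxia targets. ANGPTL4 had 1.38, 1.14 and 0.194 CPM on day 4 and 6.76, 6.67 and 8.37 CPM on day 14, a log2 fold change of 3.01 (SE 0.51, adjusted p = 0.00102), or 2.53 without replicate 3 of day 4. MXI1, an antagonist of MYC, had 23.4, 28.8 and 13.9 CPM on day 4 and 56.9, 49.6 and 44.5 on day 14 and rose with a log2 fold change of 1.20 (SE 0.24, adjusted p = 0.00259), or 0.96 without that replicate. NDRG1 had 30.3, 32.3 and 11.2 CPM on day 4 and rose with a log2 fold change of 1.10 (SE 0.32, adjusted p = 0.0194), or 0.76 without it, a call lost without replicate 2 or 3 of day 14 CTRL (adjusted p of 0.0532 and 0.0557). BNIP3L, the mitophagy receptor also called NIX, had 111, 123 and 94.9 CPM on day 4 and 213, 194 and 198 on day 14 and rose with a log2 fold change of 0.88 (SE 0.12, adjusted p = 0.000299). KDM3A, a histone H3 demethylase, had 63.8, 57.6 and 58.7 CPM on day 4 and 105, 92.4 and 102 on day 14 and rose with a log2 fold change of 0.74 (SE 0.10, adjusted p = 0.00035). EGLN3 rose with a log2 fold change of 0.67 (SE 0.23, adjusted p = 0.0352), a call lost without replicate 1 or 3 of day 14 CTRL or replicate 2 of day 4. In each of the 6 the day 14 values lay above the day 4 values. Cell type markers moved in the same comparison. All 12 neuron markers and 7 of 8 coelomic epithelium markers were called higher, and 6 of 8 markers of dividing cells and 5 of 8 of pluripotent cells lower. The pluripotent markers summed to 2199.9 to 2403 CPM on day 4 and to 208 to 269 CPM in CTRL on day 14. Of the mean sums, LIN28A alone held 1858 of 2320 CPM on day 4 and 98.4 of 244 CPM on day 14. Their part in the changes of the members was not tested.

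Of the steps between neighbouring days in CTRL, that from day 6 to day 8 had the most members called. In that step 17 members were called, where 16.6% of all genes were, and all 17 were lower, a direction in which 7.91% of all genes were called. They included 8 enzymes and 6 hypoxia targets, with log2 fold changes of -0.91 for PFKFB4, -0.88 for LDHB, -0.80 for BNIP3 and -0.68 for PGAM1. PFKP and ALDOA were not among them. The mean of PFKP was 171 CPM on day 6 and 195 on day 8, and 149, 129.8 and 98.0 on days 10, 12 and 14, and that of ALDOA was 15.7 on day 4, 9.66 on day 6 and 7.79 on day 8. Without replicate 1 of day 8 CTRL, 10 were called, all lower. Between day 8 and day 10, 5 members were called (10.6% of all genes), of which ANGPTL4 (0.75), ANKRD37 (0.74), ALDOC (0.30) and KDM3A (0.25) rose and PFKP (-0.38) fell, on the log2 scale. This count was 0 to 3 without replicate 1 or 3 of day 10 or replicate 1 or 3 of day 8, and 8 without replicate 2 of day 8. In the last steps edgeR called 0 members, from day 10 to 12 (2.03% of all genes) and from day 12 to 14 (0.0458%), while 10 members in each had an unadjusted p under 0.05. DESeq2 called 6 and 1. By edgeR, 3 were called from day 10 to 12 without replicate 1 of day 12 or replicate 3 of day 10, and 1 and 2 from day 12 to 14 without replicate 1 of day 12 and replicate 3 of day 14.

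IND cultures were compared with the same day 4 libraries, so their values are given beside those of CTRL and not as independent support. Members called higher and lower against day 4 in IND were 10 and 3 on day 6 (13.1% and 13.5% of all genes), 8 and 5 on day 8 (18.7% and 17.0%), 7 and 3 on day 10 (11.9% and 9.79%), 8 and 3 on day 12 (20.5% and 16.6%), and 6 and 18 on day 14 (25.8% and 24.8%). With total counts they were 15 and 0 on day 6 and 9 and 2 on day 8. By day 14, 12 of 17 enzymes were called lower in IND, among them GAPDH at a log2 fold change of -0.55 (SE 0.20, adjusted p = 0.0454) and ENO1 at -0.74 (SE 0.19, adjusted p = 0.00794), while NDRG1 was at 1.68 (SE 0.32, adjusted p = 0.0016). On day 6 these counts fell to 5 to 7 without replicate 2 or 3 of IND or replicate 1 of day 4. On day 8 they were 8 without replicate 2 of IND or replicate 1 of day 4, and 21 without replicate 3 of day 4. On day 10 they were 5 and 3 without replicates 1 and 3 of IND, 1 and 2 without replicates 1 and 2 of day 4, and 13 without replicate 2 of IND, which stood apart.

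Genes that act on the same pathway moved in part. Of 11 HIF subunits and regulators, 2 were called higher and 0 lower in IND on each of days 8, 12 and 14, and 0 on days 6 and 10. These were EPAS1, which encodes HIF2 alpha, and HIF3A. On days 8, 12 and 14, 7.49%, 2.38% and 3.21% of all genes tested were called higher. EPAS1 rose by 0.52 on the log2 scale on day 8 (adjusted p = 0.0164), by 1.06 on day 12 (0.0107) and by 1.66 on day 14 (0.0273), when it stood at 89.4 ± 27.0 CPM in IND and 28.3 ± 8.13 in CTRL. HIF1A, the alpha subunit of the general response, was not called between IND and CTRL, with log2 fold changes of 0.09, 0.14, -0.20, -0.12 and 0.06, and fell in CTRL from day 4 to day 14 with -0.67 (adjusted p = 0.00418).

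Among 34 other hypoxia targets, the numbers called higher and lower in IND were 1 and 1 on day 6, 6 and 3 on day 8, 0 and 1 on day 10, 0 and 0 on day 12, and 3 and 8 on day 14. CA12, a carbonic anhydrase, was among those that rose on days 6 (log2 fold change 2.47) and 8 (1.73), and NDUFA4L2 (-1.35) and EDN1, the precursor of endothelin (-1.03), fell on day 14. Of 24 other glycolysis genes, 16 or 17 could be tested on a day. In IND, 0 were called higher and 1 lower on day 6, and 2 higher and 2 lower on day 8, among them the muscle enolase ENO3 at a log2 fold change of 0.45, PGM1 at 0.36 and the monocarboxylate transporter SLC16A7 at -0.85, and 0 were called later. Of 28 genes of pyruvate oxidation and the citrate cycle, 2 were called higher on day 8 (MPC2 at 0.57 and PDP2 at 0.35) and 1 higher and 1 lower on day 14 (SUCLG2 at 0.34 and IDH3G at -0.35). Of 7 genes of the pentose phosphate pathway, TKT (-1.20), PGD (-0.92) and RPE (-0.74) fell in CTRL from day 4 to day 14. In that comparison 22.9% of all genes were called lower.

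Other lists moved with the same comparisons, for which the shares of all genes called are given above. On day 8, when hypoxia targets were higher, 12 of 13 mitochondrially encoded genes were called lower in IND, with a median log2 fold change of -0.66 and a sum of 14916 to 19004 CPM in IND and 25252 to 25454 CPM in CTRL. Their sum was also lower without overlap on day 10, at 5223 to 20474 CPM in IND and 24522 to 25946 in CTRL, and on day 12, at 15413 to 20531 and 22968 to 24157, with 0 and 1 of the 13 called lower by edgeR. On days 6 and 14 the sums overlapped and edgeR called 0, and on days 6, 10 and 14 an unadjusted p under 0.05 was found for 0 of them. Of 12 integrated stress response genes tested, 7 were called lower on days 6 and 8, 1 on day 10, 0 on day 12 and 3 on day 14, and 0 higher. Endothelium markers had 4 of 6 called higher on day 8, with sums of 172.6 to 188.4 CPM in IND and 136.7 to 148.3 CPM in CTRL, and 2 of 6 on days 10 and 12. None of the 8 markers of dividing cells was called between IND and CTRL by edgeR on any of the 5 days, with an unadjusted p under 0.05 for 0, 1, 1, 1 and 2 of them. Of 10 muscle markers, 2, 3, 2, 1 and 2 were called lower on the 5 days, and of 8 coelomic epithelium markers, 2, 4, 3, 3 and 4 were called lower and 1, 1, 1, 1 and 0 higher. Of 8 pluripotent cell markers, 1 was called lower on days 8 and 12 and 0 on the other days. The part of these lists in the differences of the members was not tested.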

How the data were processed

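Total RNA of 33 wells was sequenced as poly(A) selected, non-directional paired-end libraries. Per the study's methods and the submitters' processing notes, the authors' provider trimmed reads with fastp 0.23.2, mapped them with HISAT2 2.0.5 and counted fragments per gene with featureCounts 1.5.0-p3. The authors deposited these counts, not normalized, and FPKM (fragments scaled to gene length and depth), here used only for levels between genes and family shares. The table's coordinates equal those of GENCODE 29 on GRCh38 for all 58735 genes, and 0 columns were left unmapped.

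Groups came from the sample labels. Each of 19 comparisons between 2 groups was fitted with edgeR 4.0.16 in R 4.3.3 on its 6 libraries (filterByExpr, TMM, quasi-likelihood test with robust fit, limma 3.58.1), and p were adjusted over all genes tested by the Benjamini-Hochberg method. Adjusted p under 0.05 were called. The interaction of day and induction was fitted over 30 libraries. CPM use TMM library sizes over all 33. Total counts of 23940837 to 51912815 set the precision of each value, and intervals from counts cover counting error only. On simulated counts for day 8 with 200 genes changed by 2 on the log2 scale, edgeR recovered 185 with 13 false calls over 19075 genes. On the same counts DESeq2 recovered 179 with 32 false calls over 19433 genes. For the interaction edgeR recovered 130 with 13 false calls over 21885. All differences called between IND and CTRL among the members were smaller than 2, and recovery at their size was not simulated.

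The members and all gene lists were chosen with earlier results of these data known. Values per library were given for 16 preset members, for up to 4 members per direction with the largest log2 fold change among those called in each comparison of IND with CTRL, and for up to 6 per direction for CTRL day 14 against day 4. For the interaction the 5 smallest adjusted p were named. Some genes of the other lists are not reported here by name. The 13 other lists cover HIF subunits, other hypoxia targets, other glycolysis genes, the citrate cycle, the pentose phosphate pathway, mitochondrial genes, the integrated stress response and markers of 6 cell types. Alternatives were DESeq2 1.42.0, RLE size factors, total counts, no filter, 1 fit over 33 libraries, the replicate block and leaving out each library.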

Additional observations from a re-analysis of the deposited data

Results flagged for a closer look

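For 4 members the difference between IND and CTRL changed with the day in the test of the interaction of day and induction over the 30 libraries after day 4. The adjusted p of the quasi-likelihood test in edgeR was 0.018 for PFKFB4, 0.0223 for EGLN3, 0.0368 for ADM and 0.0372 for ENO2. PFKFB4 had a log2 fold change of IND over CTRL of 0.77 on day 8 and -0.50 on day 14. EGLN3 went from 1.25 on day 8 to -0.17 on day 14, ADM from 1.63 on day 12 to 0.02 on day 14, and ENO2 from 0.54 on day 8 to -0.77 on day 14. Without replicate 1 of every group the adjusted p were 0.224, 0.279, 0.608 and 0.385 in the same order. Without replicate 2 of day 10 IND alone they were 0.0217, 0.00342, 0.0425 and 0.0474.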

How the results depend on the processing

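Leaving out 1 library at a time gave 1 to 8, 3 to 12, 0 to 12, 0 to 5 and 3 to 10 members called between IND and CTRL on days 6, 8, 10, 12 and 14. For CTRL against day 4 the counts were 3 to 14, 9 to 24, 14 to 24, 12 to 21 and 13 to 22, and for IND against day 4 they were 5 to 14, 8 to 21, 1 to 13, 9 to 13 and 20 to 26. The CTRL steps gave 10 to 18, 0 to 8, 0 to 3 and 0 to 2, and the interaction 0 to 5. Of the values of named members, 5 reversed without 1 library, 54 lost and 5 gained a call, and 200 stayed on their side. ADM on day 6 ranged from -0.26 to 0.067, the latter without replicate 1 of IND. SLC2A3 on day 14 ranged from -0.11 without replicate 2 of IND to 0.19, with -0.06 without replicate 2 of CTRL, and ADM on day 14 from -0.15 without replicate 2 of IND to 0.14, with -0.04 without replicate 3 of CTRL. Under the other settings 0 of these values reversed, 12 lost and 15 gained a call, and 237 stayed on their side.

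With no filter on low counts, the members called were 6, 12, 1 and 11 between IND and CTRL on days 6, 8, 10 and 14, 21 for IND day 6 against day 4, 7 and 5 for the CTRL steps to days 12 and 14, and 9 for the interaction. A single fit over 33 libraries, which shares 1 estimate of spread, gave 1, 9 and 2 between IND and CTRL on days 6, 10 and 14, 18 and 17 for IND days 10 and 12 against day 4, and 10 and 0 for the CTRL steps to days 8 and 10. DESeq2 gave 5 on day 10, 6 and 1 for the last CTRL steps and 7 for the interaction. Total counts gave 5 for CTRL day 6 against day 4, and turned the sign of 0 to 2 of the 36 members between IND and CTRL and of 3 to 9 against day 4. The cause of these shifts was not tested.

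Wells with the same replicate number did not vary together: the correlation of their deviations was -0.107 to 0.0781 over 15 pairs of IND and CTRL groups, with 0 over 0.1. The replicate block gave 3, 9, 0, 3 and 8 members called between IND and CTRL on the 5 days and 4 for the interaction, and moved IND days 6 and 10 against day 4 to 8 and 2 and the CTRL step to day 12 to 1. The depth limits CA9, ANKRD37 and ANGPTL4, the members with the lowest CPM.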
